A study of Drosophila melanogaster with 62 samples.

Results

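CG43759, DIP1 and RhoGAP18B are 3 X-linked genes of Drosophila melanogaster. In embryos mutant for elav, which encodes an RNA-binding protein, the end segment of their 3′ untranslated region (3′ UTR) was used far less than in wild type. They were chosen by where the authors listed them, namely in the elav and elav-rbp9 comparisons and in neither elav-fne nor elav-fne-rbp9. Listing alone does not set them apart, since 7 genes were listed in this way. In early elav embryos these 3 had the lowest folds of the 7, so their low place in that list is no separate result. They are 3 of the 415 genes listed in at least 1 of the study's 10 mutant comparisons of the first experiment. The folds of those comparisons chose the genes, so they are given here as a description, with no test. A second experiment of 4 comparisons used other libraries.

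ELAV, FNE and RBP9 are paralogous neuronal RNA-binding proteins. ELAV is known to bind U-rich stretches near proximal cleavage sites of nascent transcripts in neurons, so that RNA polymerase reads on to a distal site and the 3′ UTR becomes longer. FNE is known to take over some of this work when ELAV is missing. Of the genes described here, DIP1 encodes a nuclear protein with double-stranded RNA-binding domains, found as a partner of the transcription factor Disconnected. RhoGAP18B encodes a GTPase-activating protein, and its mutants are known for altered behaviour under ethanol. No role is given here for CG43759.

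Poly(A) RNA came from pooled male embryos, as stranded libraries, per the labels. The early window (14 to 16 h) had 3 libraries each of elav, elav-rbp9, elav-fne, elav-fne-rbp9, fne, rbp9 and wild type. The late window (18 to 22 h) had 3 elav, 5 elav-fne, 4 fne and 4 wild-type libraries. For 3 fne-rbp9 libraries the labels conflict, with a late stage but an early table named, and no window is given to them here. Experiment 2 had elav-nFne, nFne and wild type, 3 libraries of each per window. The name nFne refers to a form of FNE found in the nucleus, as far as the study is known, and the labels call these embryos mutants without saying how nFne was altered. A further 2 RNA libraries came from wild-type adult heads, and 2 iCLIP libraries were not analysed here. The labels name the mutated genes but no alleles, and do not say whether replicates came from separate crosses. The p-values of the authors therefore cover library-to-library spread, part of which may be technical. Embryo depth is unknown and no value per embryo library was used, so each fold stands without a standard error.

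Each of the 3 genes had its very last segment listed, and that segment lay wholly in annotated 3′ UTR, outside coding sequence. The segment of CG43759 (FBgn0264090) spans 1065 bases at X:19027565-19028629 on the plus strand of dm6, the last of 11 segments in the early annotation. That of DIP1 (FBgn0024807) spans 354 bases at X:21624796-21625149 on the minus strand, the last of 12. That of RhoGAP18B (FBgn0261461) spans 499 bases at X:19136107-19136605 on the minus strand, the last of 16. The coordinates were identical in the late annotation and in all 4 tables of the second experiment. The authors coded the CG43759 and DIP1 segments TE and that of RhoGAP18B LE, codes whose meaning no label or header gives. No other annotated gene overlapped any of the 3 segments on either strand.

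The position of the segments differed between the genes. In CG43759 and DIP1 the segment continued the same exon, so that its use marks a longer 3′ UTR. Of 4 annotated CG43759 transcripts, 1 held the segment, with 3066 bases of 3′ UTR, against 814 or 1309 bases in the other 3. The transcript with 814 bases has another stop codon, so its 3′ UTR differs in more than the end, while those with 1309 bases share the stop codon of the long form. In DIP1 the long form was the common one, held by 7 of 8 annotated transcripts, with 1259 bases of 3′ UTR against 905 in the remaining transcript. The RhoGAP18B segment was instead a separate last exon, 5507 bases past the nearest upstream segment. The 1 annotated RhoGAP18B transcript of 5 that held it had 611 bases of 3′ UTR, against 132 or 1472 bases in the others, and all 5 shared the same stop codon. For DIP1 and RhoGAP18B the listed segment was narrow within the elav early list, where the median width was 1630 bases and 8 of 185 genes had a narrower entry than DIP1 and 22 than RhoGAP18B.

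**Figure D1:**
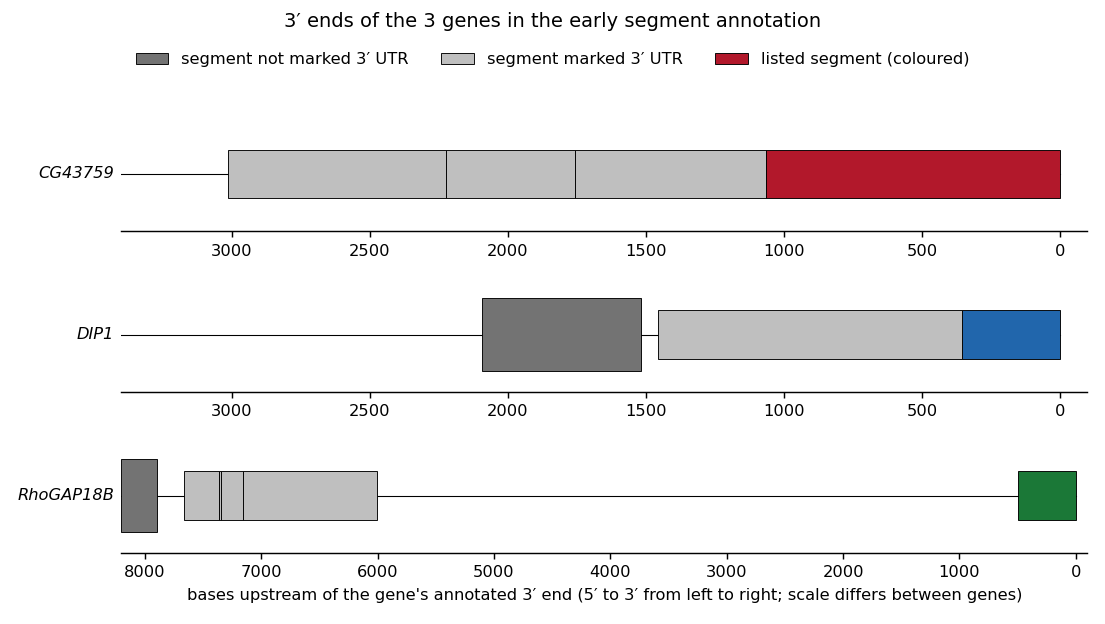
Segments at the 3′ ends of CG43759, DIP1 and RhoGAP18B in the authors' early annotation, drawn to scale within each gene against the distance in bases from the gene's annotated 3′ end. The coloured block is the listed segment: it adjoins the upstream 3′ UTR in CG43759 and DIP1, and lies 5507 bases past it in RhoGAP18B.

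In early elav embryos CG43759 had the lowest fold of the whole list. In the authors' deposited table its segment use, elav over wild type, was -5.83 on the log2 scale, which is 1.76% of wild-type use (adjusted p = 1.77e-111). DIP1 stood at -3.20 log2 in the authors' deposited table, or 10.9% of wild-type use (adjusted p = 2.96e-149). RhoGAP18B, also with 10.9% of wild-type use, stood at -3.20 log2 in the authors' deposited table (adjusted p = 3.61e-77). All 3 genes lay well below the list's median, which was -1.41 over 185 genes. Next to CG43759 in the order stood ct, the homeodomain gene cut, with -5.79 in the authors' deposited table. DIP1 and RhoGAP18B held ranks 16 and 17, between cic (-3.25) and cpo (-3.16), both listed in elav-fne early too, by the authors' deposited table.

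The counts behind these folds differed between the genes. DIP1 had a mean normalised count of 504.2 at its segment, RhoGAP18B 164.8 and CG43759 63.2, over elav and wild-type libraries in the authors' deposited table. The authors' fitted use, a score whose scale is not given in the sources used here, was 2.85 in elav and 20.6 in wild type for CG43759 in that authors' deposited table. DIP1 had a fitted use of 10.2 in elav and 28.7 in wild type, and RhoGAP18B 7.32 in elav and 21.3 in wild type, in the same authors' deposited table. The ratio of these scores is not the percent of wild-type use given above, which was computed from the log2 fold. The elav early list held 185 genes, 1.47% of the 12624 genes with at least 2 segments in the early annotation, and the presence of all 3 genes follows from how they were chosen.

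**Figure D2:**
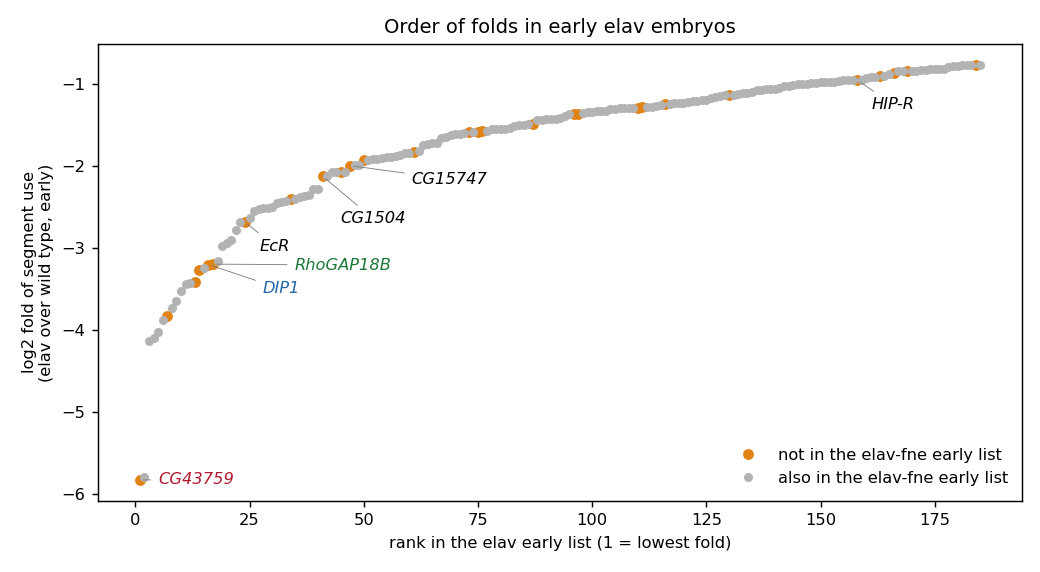
Log2 folds of segment use in early elav embryos over wild type (vertical axis) for the 185 genes of the authors' list, ordered from the lowest (horizontal axis, rank). CG43759 lies at -5.83, and DIP1 and RhoGAP18B at -3.20, among genes not in the elav-fne early list (orange); the other named genes follow the same listing rule.

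The same 3 segments were again among the lowest where Rbp9 was mutated along with elav. In early elav-rbp9 embryos the log2 folds in the authors' deposited table were -6.47 for CG43759, -3.36 for DIP1 and -2.99 for RhoGAP18B. The corresponding use was 1.13%, 9.72% and 12.6% of wild type, computed from the authors' deposited table. CG43759 again had the lowest fold, of 149 genes, with DIP1 10th and RhoGAP18B 15th, and the list held 1.18% of the genes with at least 2 segments. The elav-rbp9 and elav comparisons share their wild-type libraries, so their folds are not independent.

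Late embryos, which share no library with early ones, gave large decreases at all 3 genes in elav. In the authors' deposited table DIP1 had the lowest log2 fold of the 73 genes listed, at -4.01 (6.22% of wild-type use, adjusted p = 2.89e-15). RhoGAP18B was 3rd, with -3.45 in the authors' deposited table (9.13% of wild-type use, adjusted p = 3.36e-34). CG43759 was 6th, with -3.26 in the authors' deposited table (10.4% of wild-type use, adjusted p = 1.52e-18). This list held 0.578% of genes with at least 2 segments. The 3 genes did not follow one course between the windows. Among 66 genes listed in elav in both, the median late-minus-early difference of log2 folds was 0.48, that is nearer 0 late, and 16 genes were lower late. DIP1 (-0.81) and RhoGAP18B (-0.26) were among these 16, while CG43759 moved by 2.57 towards 0, the largest such move but 1. The mean normalised count at the CG43759 segment was 24.7 late in the authors' deposited table, so its fold rests on the fewest reads of the 3.

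None of the 3 genes was listed in elav-fne early, elav-fne late or elav-fne-rbp9, the comparisons in which fne was mutated along with elav. Those lists held 1.86%, 1.36% and 2.25% of genes with at least 2 segments. Nor were they listed in fne early, fne late, fne-rbp9 or rbp9, which held 0.459%, 0.0634%, 0.309% and 0.0475%. In all 10 lists the entries kept to 2 limits, an adjusted p below 0.0001 and a fold at or below -0.75 log2. A gene missing from a list may therefore have had a smaller decrease, no change, an increase or too few counts, and its value just outside the limits is not known from these tables. That segment use fell only where fne was intact can therefore not be tested on the first experiment.

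**Figure D3:**
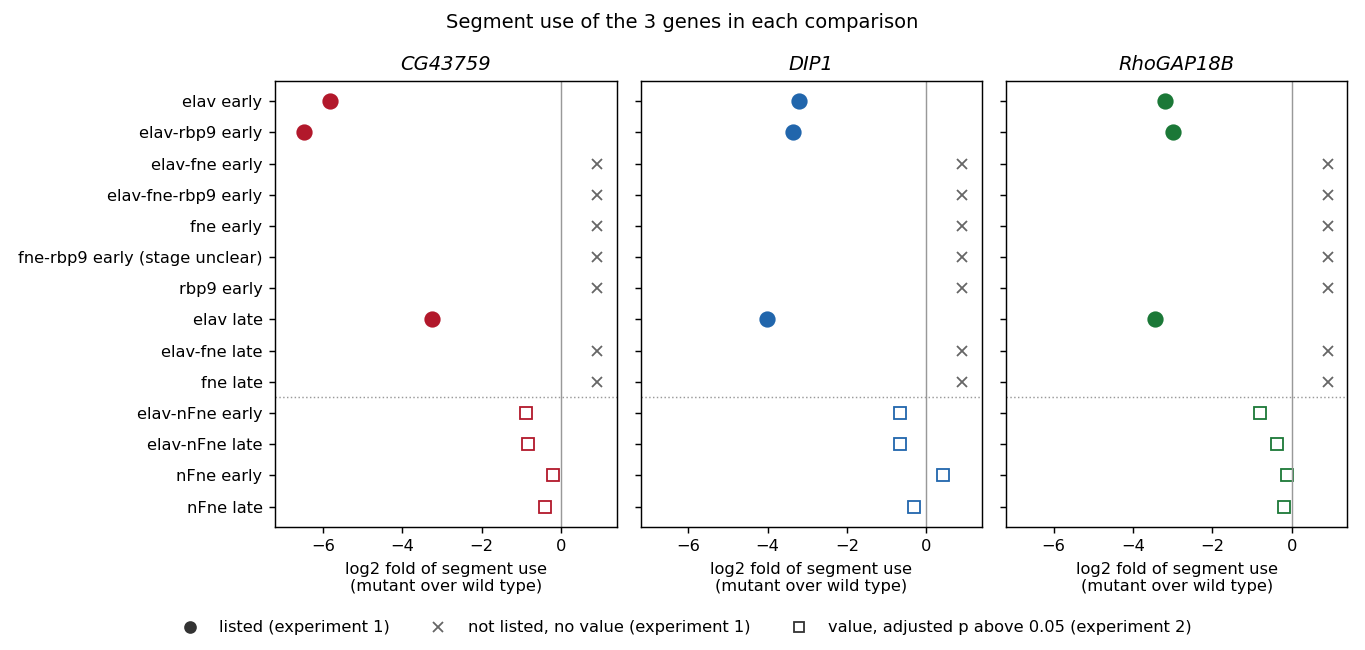
Log2 folds of segment use, mutant over wild type (horizontal axis), for CG43759, DIP1 and RhoGAP18B in the 14 comparisons (vertical axis). Filled points are listed values of experiment 1, crosses mark comparisons in which the gene was not listed and has no value (placed at the right edge), and open squares are values of experiment 2, none of which passed; the 3 filled points of each gene lie at -2.99 or lower and all squares at -0.89 or higher.

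The second experiment gave each gene a fold in every comparison, at the same segment and in libraries that did not enter the choice. In early elav-nFne embryos the weighted log2 folds in the authors' deposited table were -0.89 for CG43759 (adjusted p = 0.138), -0.66 for DIP1 (adjusted p = 0.327) and -0.79 for RhoGAP18B (adjusted p = 0.164). These folds correspond to 53.9%, 63.4% and 57.8% of wild-type use, computed from the authors' deposited table. Among all 173 genes with a value, 142 fell (82.1%) at an adjusted p under 0.05, by the authors' deposited table, and none of the 3 was among them. The median log2 fold there was -1.84, and from the highest fold downward DIP1 was 9th, RhoGAP18B 14th and CG43759 18th.

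Late elav-nFne embryos gave values of the same kind. The log2 folds in the authors' deposited table were -0.84 for CG43759 (adjusted p = 0.284), -0.66 for DIP1 (adjusted p = 0.0597) and -0.36 for RhoGAP18B (adjusted p = 0.407). Of 172 genes with an adjusted p, 156 fell (90.7%), and the median log2 fold was -1.43 in the authors' deposited table. Again 0 of the 3 passed. All 3 had negative folds in both windows, so a smaller decrease of use remains possible for each of them. With 0.01 as the limit, again none of the 3 passed in elav-nFne, where 75.1% of genes fell early and 87.8% late.

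Genes with as high a count at their segment mostly passed. In early elav-nFne the mean normalised counts were 49.5 for CG43759, 112.5 for DIP1 and 71.8 for RhoGAP18B in the authors' deposited table, where the median over genes was 80.6. Of the 120 genes with at least the count of CG43759, 105 passed (87.5%). In late elav-nFne the counts were 26.2, 100.4 and 55.2 for these genes in the authors' deposited table, and 135 of the 145 genes at or above the lowest passed (93.1%). Fold size was not matched. The median log2 folds over all genes, -1.84 early and -1.43 late, were lower than those of CG43759, DIP1 and RhoGAP18B. These shares therefore do not say how often a gene with a fold as small would pass.

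Embryos mutant for nFne alone had folds nearer 0 at the 3 genes. In early nFne embryos the authors' deposited table gives -0.21 for CG43759, 0.41 for DIP1 and -0.12 for RhoGAP18B as log2 folds (adjusted p = 0.778, 0.655 and 0.913). Late values in the authors' deposited table were -0.40, -0.31 and -0.19 in the same order (adjusted p = 0.360, 0.740 and 0.847). None passed, in tables where 2.89% of genes fell and 1.16% rose early, and 14.5% fell and 0.578% rose late, and the median log2 folds were -0.15 and -0.37. With 0.01 as the limit, 2.31% of genes fell early and 7.51% late, and still none of the 3. The fold of DIP1 in early nFne was the fifth highest of 173.

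Set beside elav, the elav-nFne folds of these genes were much nearer 0. The experiments share no library, but the second experiment's genes were chosen from the elav early list, so a move towards 0 is favoured for the lowest elav folds. The median difference, elav-nFne minus elav early, was -0.45 log2 over 173 genes, and 39 genes were higher in elav-nFne. CG43759 had the largest positive difference (4.94), DIP1 the next (2.54) and RhoGAP18B the fourth (2.40), after ATPCL, which encodes ATP citrate lyase (2.49) and was named after its value was seen. For contrast, ct, next to CG43759 in the elav list, had -5.47 in elav-nFne in the authors' deposited table and a difference of 0.33. Late, with 61 genes in both tables, the 3 genes held the first 3 places, DIP1 with 3.35, RhoGAP18B with 3.09 and CG43759 with 2.42, against a median of -0.73. These differences compare separate fits and carry no test. They also set a weighted fold of the second experiment against a fold not called weighted in the first. The measures may therefore differ for genes with more than 1 segment. In the elav early list 142 of 185 genes had 1 segment, with CG43759, DIP1 and RhoGAP18B among them.

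**Figure D4:**
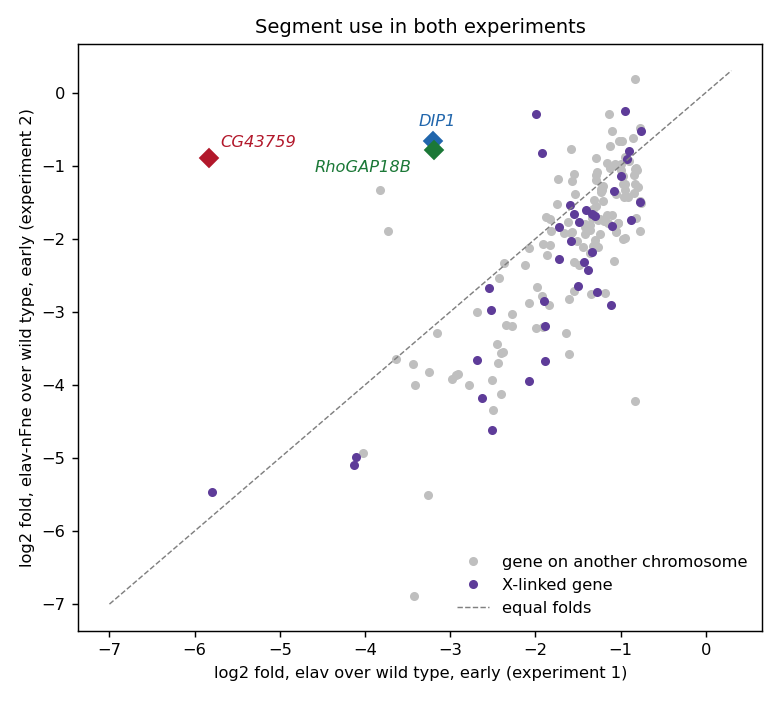
Log2 folds of segment use for 173 genes in early elav-nFne embryos of experiment 2 (vertical axis) against early elav embryos of experiment 1 (horizontal axis), each over its own wild type; purple points are X-linked. CG43759, DIP1 and RhoGAP18B (diamonds) lie between -0.89 and -0.66 on the vertical axis and at -3.20 or lower on the horizontal axis, above the line of equal folds.

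Few other genes were listed by the same rule. Of the 136 genes in both the elav and the elav-rbp9 early lists, 129 were also in elav-fne or elav-fne-rbp9, which leaves 7: the 3 genes above, CG1504, CG15747, HIP-R, a gene named for an Hsc70-interacting protein, and EcR, the ecdysone receptor gene. The authors' deposited table for elav early gives log2 folds of -2.68 for EcR, -2.12 for CG1504, -1.99 for CG15747 and -0.95 for HIP-R. CG1504 and CG15747 were the genes most like the 3, with identical presence and absence in all 10 lists, including elav late (-1.85 and -1.61 in the authors' deposited table). For CG15747 the late entry was another segment, 786 bases wide and coded CE, against 492 bases and LE in elav early. EcR and HIP-R were not listed in elav late.

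The X chromosome held 6 of these 7 genes, and all 5 of those with the identical pattern. X-linked genes made up 20.9% of the 129 genes that were also in elav-fne or elav-fne-rbp9, 23.2% of the elav early list and 16.0% of all genes with at least 2 segments. Under absence from elav-fne alone the X share was much smaller than among the 7 genes, with 9 of 28 elav early genes (32.1%) and 5 of 14 elav late genes (35.7%). Those 9 include the 6 X-linked genes of the rule, and those 5 are the genes with the identical pattern. These shares are therefore not separate from the count among the 7 genes. The 6 include CG43759, DIP1 and RhoGAP18B themselves. The exception, EcR, lies on 2R. EcR fell in elav-nFne in both windows, with log2 folds of -3.01 early (adjusted p = 7.82e-08) and -3.82 late (adjusted p = 9.94e-12) in the authors' deposited tables. Of the 6 X-linked genes, 5 had a value in elav-nFne and none fell at an adjusted p under 0.05 in either window. CG15747 had -0.30 early and -0.16 late, and HIP-R -0.25 and 0.07, in the authors' deposited tables, while CG1504 was listed with a count of 0 and no fold in all 4. Other X-linked genes of the elav list mostly passed, 35 of 36 in early elav-nFne and 33 of 36 in late elav-nFne. The early exception, named after its value was seen, was CG32647, with -0.83 (adjusted p = 0.425) in the authors' deposited table. It too was absent from the early elav-fne and elav-fne-rbp9 lists, and missed the rule only by its absence from elav-rbp9. The same holds for X-linked Pp2B-14D, which did fall in early elav-nFne, with -0.80 (adjusted p = 0.0012) in the authors' deposited table.

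The mutated genes elav and fne also lie on X, so the X chromosome of a mutant embryo comes with its elav or fne allele. The labels give neither the alleles nor the origin of these chromosomes. Effects of the mutated genes and any other difference of the mutant X chromosome cannot be told apart for these genes. CG43759 and RhoGAP18B are close neighbours, 107.5 kb apart, and DIP1 lies 2458 kb beyond RhoGAP18B. From the elav site the authors' start sites lie 18.5 Mb away for CG43759, 18.6 Mb for RhoGAP18B and 21.1 Mb for DIP1. From the fne site they lie 6.08, 6.20 and 8.68 Mb away. For RhoGAP18B and DIP1 this start is an edge of the segment upstream of the listed one, at X:19142113 and X:21625150. From CG43759 to DIP1, a stretch whose ends these genes set, 4 of the 7 X-linked genes of the elav early list followed the rule: CG43759, RhoGAP18B, CG1504 and DIP1. Elsewhere on X 2 of 36 did, CG15747 and HIP-R. All of those 4 except CG1504 are the chosen genes, which both set the stretch and follow the rule by choice. The counts are therefore no result about the region, and clustering was not tested. The 3 genes of the stretch outside the rule were listed in early elav-fne, where the authors' deposited table gives -2.18 for CG7556, -4.50 for zld and -2.14 for shakB on the log2 scale.

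DIP1 was set among 12 double-stranded RNA-binding protein genes, of which 11 were found in the annotation with at least 2 segments. DIP1 was the 1 gene of the 11 listed in elav early, in elav-rbp9 early and in elav late. In the other 7 comparisons 0 of the 11 were listed. DIP1 was chosen for its listing in elav and elav-rbp9 and its absence from elav-fne and elav-fne-rbp9. Its place in these lists therefore follows from the choice and is no result about the family.

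Adult heads of wild-type flies showed how much RNA the 3 genes give in tissue rich in neurons, measured in TPM, a unit of transcript abundance per length and library size. elav itself, a marker of neurons, had 13.4 and 13.3 TPM. DIP1 had 85.3 and 90.6 TPM in the 2 libraries, RhoGAP18B 8.32 and 8.30 TPM, and CG43759 2.86 and 2.89 TPM. The libraries gave the same order, and the gaps between genes were larger than the spread between libraries. Among the 185 genes of the elav early list, whose median was 20.9 TPM, DIP1 ranked 19th, RhoGAP18B 156th and CG43759 174th. In such bulk RNA, fewer expressing cells and less RNA per cell cannot be told apart. The head libraries give whole-gene levels and say nothing of which segment was used.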

How the data were processed

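The authors compared segment use between mutant and wild-type embryos, and their deposited tables hold, for each gene, a log2 fold and raw and adjusted p-values, per the file headers. The fitted use is a score, and the mean normalised count is a signal averaged over libraries, per the file headers of the deposited tables. The test behind these values is not given in the sources used here. In the second experiment the deposited adjusted p is the smallest over a gene's segments, and 1 segment is listed for each of the 3 genes. For head RNA the deposited unit is TPM, with sums of 360087 and 365410 TPM over the 17753 genes given. Segment annotations were written with rtracklayer 1.40.5, per the file headers, and use dm6 by the submitters' processing notes. Transcripts came from Ensembl release 115 (BDGP6.54), an annotation on the dm6 assembly.

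Computed here were ranks, medians, differences, counts and percent of wild-type use, with Python 3.11.15, numpy 2.4.6, pandas 2.3.3 and matplotlib 3.10.9. No test was run, and each p-value is the authors'. A second-experiment gene was called at an adjusted p under 0.05. The genes and lists were chosen with earlier results of these data known. Named were the 3 genes, those with the same listing rule, their neighbours in the elav early order, and listed genes of a fixed family of double-stranded RNA-binding proteins; another fixed list is not reported here. Embryo depth and errors per library are unknown. Alternatives tried were stricter thresholds and other forms of the listing rule.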

Additional observations from a re-analysis of the deposited data

How the results depend on the processing

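The 7 genes with the listing rule became 5 with an adjusted p under 1e-06 in elav and elav-rbp9, 6 with a log2 fold of -1 or lower, and 5 with presence in elav late and absence from elav-fne late. X-linked genes among them numbered 6, then 4, 5 and 5. CG43759, DIP1 and RhoGAP18B were in each set. Identical presence and absence in all 10 lists, an alternative chosen after seeing the data, gave 5 genes, all X-linked. At an adjusted p under 0.01 none of the 3 genes was called in the second experiment, and the genes called in late nFne numbered 14 in place of 26. Without absolute folds under 0.1 the median log2 folds were -0.24 in early nFne, -0.39 in late nFne and -1.44 in late elav-nFne, by the alternative's own construction further from 0. The shares of segment ends with a polyadenylation hexamer, planned at window lengths of 30 and 50 bases, were not run, since no genome sequence was used here. No paired analysis was possible because the deposited comparisons hold no values per embryo library, and for the same reason no library was left out. The low count at CG43759 limits its late folds most.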
